A study of Homo sapiens with 4 samples.

Results

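The genes described here are 6 transcription factor genes of the anterior neural plate and early forebrain: *OTX2*, *HESX1*, *ZIC2*, *LHX1*, *LHX2* and *LHX5*. Each was taken as the level of 1 named probe, so that 6 of the 47289 gene probes on the array are followed (the *OTX2* probe was designed on a transcript variant of that gene). The probes were chosen by name, with earlier results of these data known. Expression was measured in NCCIT human embryonal carcinoma (hEC) cells, the stem cells of a teratocarcinoma line that grow without feeders and express OCT4, SOX2 and NANOG, transcription factors of the pluripotent state. There were 4 groups of 3 biological replicate arrays, all of the same line, all treated with Hyperfect transfection reagent and all harvested on day 2.5 by the labels (the methods text says day 2). Mock cells received the reagent alone. The other groups received esiRNA, a pool of short interfering RNAs cut enzymatically from a long double strand, against OCT4, NANOG or SOX2 mRNA. No array carried an irrelevant esiRNA, and a single, aneuploid line stands for hEC cells throughout.

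In the embryo these genes act at the front of the neural plate. *OTX2*, *HESX1*, *LHX1*, *LHX2* and *LHX5* encode homeodomain proteins and *ZIC2* a zinc finger protein. OTX2 is required for forebrain and midbrain, and is also present in the epiblast and in pluripotent cells. HESX1 is a repressor of the anterior neural plate and of the pituitary primordium that recruits corepressors of the TLE family. ZIC2 acts in the neural plate midline and dorsal neural tube, and its loss in people is a cause of holoprosencephaly. The LIM-homeodomain proteins bind DNA as part of complexes with the LDB adaptors: LHX1 acts in the head organizer and kidney, LHX2 in the eye field and cortex, and LHX5 in the forebrain and hippocampus.

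The comparisons ask how the level of these genes differed from mock when the mRNA of each core factor was targeted. *HESX1* and *ZIC2* fell in all 3 knock-downs. *OTX2* fell in the OCT4 and SOX2 knock-downs and rose in the NANOG knock-down. *LHX2* and *LHX1* rose in the OCT4 and SOX2 knock-downs, *LHX5* passed the test in the OCT4 knock-down alone among the comparisons with mock, and none of the 3 *LHX* genes passed it in the NANOG knock-down. The promoter sequences below are shown because the same knock-downs moved these genes in different directions. They are the 250 bases 5′ of the annotated start in RefSeq (GRCh38.p14, gene strand), and 4 of the 6 genes have an entry in the table used. *HESX1* (chromosome 3, 57197838 to 57227615) has 2 annotated starts and *OTX2* (chromosome 14, 56799905 to 56810479) also has 2. *ZIC2* lies on chromosome 13, from 99981784 to 99986765, and *LHX2* on chromosome 9, from 124011768 to 124033301. *LHX1* (chromosome 17, 36936785 to 36944612) and *LHX5* (chromosome 12, 113462033 to 113471871) are named only. Capitals mark matches to the motifs searched.
HESX1, downstream start, chr3:57199979-57200228, minus strand: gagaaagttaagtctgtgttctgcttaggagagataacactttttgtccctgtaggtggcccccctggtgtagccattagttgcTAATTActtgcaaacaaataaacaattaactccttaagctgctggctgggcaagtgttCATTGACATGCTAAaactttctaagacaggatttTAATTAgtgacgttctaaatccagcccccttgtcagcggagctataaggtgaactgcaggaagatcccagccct
ZIC2, chr13:99981534-99981783, plus strand: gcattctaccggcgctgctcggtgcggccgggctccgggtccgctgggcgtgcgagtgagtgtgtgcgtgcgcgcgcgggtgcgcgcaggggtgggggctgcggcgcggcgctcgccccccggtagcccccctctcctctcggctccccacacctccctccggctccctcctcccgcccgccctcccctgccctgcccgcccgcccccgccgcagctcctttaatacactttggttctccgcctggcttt
OTX2, upstream start, chr14:56810480-56810729, minus strand: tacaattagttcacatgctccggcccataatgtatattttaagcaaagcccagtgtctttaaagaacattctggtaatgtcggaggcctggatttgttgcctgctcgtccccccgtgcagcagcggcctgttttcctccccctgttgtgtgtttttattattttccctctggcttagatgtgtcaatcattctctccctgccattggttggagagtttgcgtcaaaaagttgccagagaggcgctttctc
LHX2, chr9:124011518-124011767, plus strand: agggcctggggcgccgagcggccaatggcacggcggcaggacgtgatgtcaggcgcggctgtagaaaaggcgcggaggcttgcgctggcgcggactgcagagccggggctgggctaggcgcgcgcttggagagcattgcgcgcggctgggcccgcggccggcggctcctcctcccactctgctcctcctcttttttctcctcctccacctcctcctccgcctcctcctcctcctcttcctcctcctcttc

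The motifs searched on both strands were the octamer ATGCAAAT bound by POU factors such as OCT4, the SOX core CATTGT, the homeodomain palindrome TAATTA, and a composite of an HMG site and a POU site, in which CATTG and ATGC are 2 bases apart and ATGC is followed by any base and AA. Its first 5 letters are also those of the SOX core. The composite was spelled after the *HESX1* sequence had been seen, so its match there was fixed in advance and its rarity is not evidence about that gene. It was matched once among the 6 windows of the 4 genes, by CATTGACATGCTAA at 108 to 95 bases before the downstream *HESX1* start, and 0.0142% of 35116 RefSeq windows of the same length hold it (5 windows, a count from which *HESX1* was not left out). The same *HESX1* window holds TAATTA at 166 to 161 and at 74 to 69 bases before the start, and 4.35% of all windows hold that motif. The octamer, in 1.63% of all windows, and the SOX core, in 9.29%, are not in the 6 windows. The windows differed in base composition. G and C made up 43.6% of the downstream *HESX1* window and 79.2% of the upstream one, 47.2% and 50% of the *OTX2* windows, 75.6% of the *ZIC2* window and 70.4% of the *LHX2* window.

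The raw signals had a group-wise difference in their floor that bears on the dim probes. The median raw signal over all probes was 97.5 to 104.7 on the mock arrays, 102.5 to 108.7 with NANOG silenced, 109.1 to 115.2 with SOX2 silenced and 115.9 to 124.2 with OCT4 silenced. Between 29.6% and 32.9% of probes were above background, defined as a detection score over 0.95, on each array. Levels are therefore given as log2 of the background-corrected, quantile-normalized signal plus 50, and the plus 50 makes folds of dim probes smaller than those of the signal itself. Levels of different probes are not comparable with each other. Of the targeted transcripts, *POU5F1*, which encodes OCT4, was at 9.50, 9.26 and 9.38 in mock and at 6.56, 6.46 and 6.28 in the OCT4 knock-down. *NANOG* was at 8.64, 8.71 and 8.55 in mock and at 7.28, 7.17 and 7.23 in the NANOG knock-down. Both targeted transcripts were thus lower on every array of their own knock-down than on every mock array. The arms are not the loss of 1 factor each. In the NANOG knock-down *POU5F1* was 1.3-fold lower than in mock (limma, adjusted p = 0.00373). *NANOG* was also low in the OCT4 knock-down, at 6.33, 6.35 and 6.42 and above background on 1 of 3 arrays, below its level in the NANOG knock-down itself (4.81-fold lower than in mock, limma, adjusted p = 8.1e-19). In the SOX2 knock-down neither *POU5F1* nor *NANOG* was above background on any of the 3 arrays. No probe was named *SOX2* in the table used for names, so its own level is not given here.

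**Figure D1:**
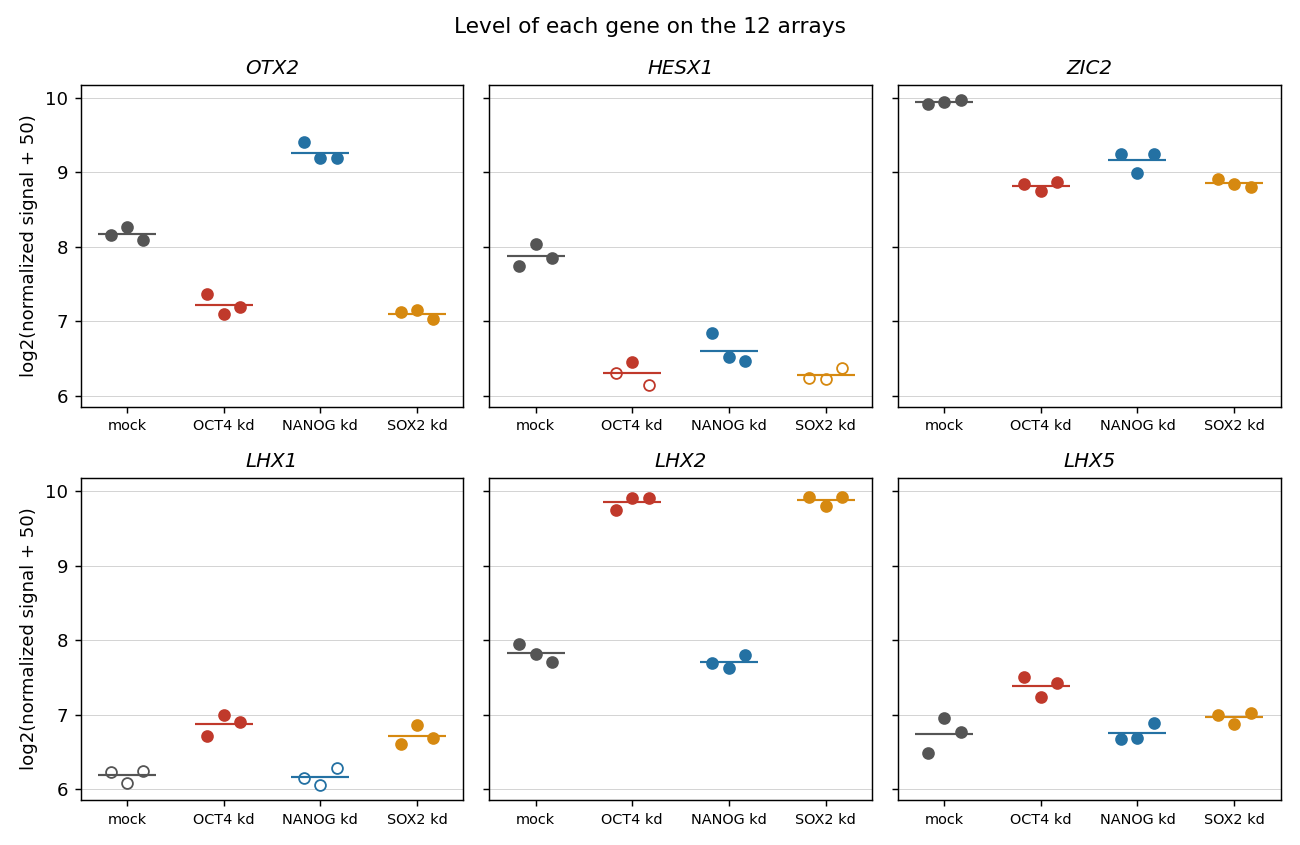
Level of each of the 6 genes on the 12 arrays, as log2 of the normalized signal plus 50 (vertical axis), for mock and the 3 knock-downs (kd). Each point is 1 array, lines are group means, and open points are arrays on which the probe was not above background; *OTX2* is highest with NANOG silenced (9.19 to 9.40), and *LHX2* is at 9.74 or above on all OCT4 and SOX2 knock-down arrays and at 7.95 or below on all others.

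*OTX2* was the gene that passed the test in opposite directions in different knock-downs. *NANOG* mRNA was below its mock level in each knock-down, and which factor lay behind each direction of *OTX2* was not tested. The level of *OTX2* in mock was 8.16, 8.26 and 8.09 on the 3 arrays. With NANOG silenced it was 9.40, 9.19 and 9.20, with OCT4 silenced 7.37, 7.10 and 7.19, and with SOX2 silenced 7.13, 7.15 and 7.03. The NANOG knock-down arrays all lay above the mock arrays, and the OCT4 and SOX2 knock-down arrays all lay below them. *OTX2* rose by 1.09 ± 0.08 on the log2 scale (standard error, n = 3 arrays a group) in the NANOG knock-down, a 2.13-fold increase (limma, adjusted p = 2.21e-10). Of all probes, 0.108% rose as far or further in that knock-down. In the OCT4 knock-down *OTX2* was 1.93-fold lower than in mock (limma, adjusted p = 6.78e-10), and in the SOX2 knock-down 2.1-fold lower (limma, adjusted p = 5.85e-11). The order of its level was thus NANOG knock-down, mock, then the OCT4 and SOX2 knock-downs, of which the last pair did not differ beyond their spread (0.12 in log2, 95% confidence interval -0.05 to 0.29, limma, adjusted p = 0.833). The authors' processed means, which have the background removed and no offset, were 164.754 in mock, 428.441 in the NANOG knock-down, 67.4141 in the OCT4 knock-down and 58.6003 in the SOX2 knock-down.

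*HESX1* fell in all 3 knock-downs. Its level was 7.75, 8.04 and 7.84 in mock, where the probe was above background on all 3 arrays. It was 6.31, 6.46 and 6.15 in the OCT4 knock-down, 6.84, 6.52 and 6.46 in the NANOG knock-down and 6.24, 6.23 and 6.37 in the SOX2 knock-down. All 9 knock-down arrays lay below all mock arrays. *HESX1* was 2.97-fold lower than mock in the OCT4 knock-down (limma, adjusted p = 3.98e-13), where it was above background on 1 of 3 arrays. In the SOX2 knock-down it was above background on none of 3, so that only a bound can be given: it was at least 2.75-fold lower than in mock (limma, adjusted p = 2.52e-13). In the NANOG knock-down it stayed above background on 3 of 3 arrays and was 2.41-fold lower (limma, adjusted p = 2.28e-10), and 0.074% of all probes fell as far or further there. The size of this fall depended on the treatment of background. Its log2 value was -1.27 here and ran from -0.81 to -2.62 over the alternatives, and in the OCT4 knock-down from -0.97 to -3.00. The authors' means were 122.839 in mock and 21.0798 in the NANOG knock-down, with no value in the OCT4 and SOX2 knock-downs.

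*ZIC2* fell in the same 3 comparisons from a level well above background on every array. It was at 9.91, 9.95 and 9.98 in mock, 8.84, 8.75 and 8.87 in the OCT4 knock-down, 9.25, 8.99 and 9.24 in the NANOG knock-down and 8.92, 8.84 and 8.80 in the SOX2 knock-down. Every knock-down array was below every mock array, and the mock arrays were close together (SD 0.03). *ZIC2* fell by 1.12 ± 0.08 in log2 (standard error) in the OCT4 knock-down (limma, adjusted p = 6.66e-12), by 0.78 ± 0.08 in the NANOG knock-down (limma, adjusted p = 4.9e-08) and by 1.09 ± 0.08 in the SOX2 knock-down (limma, adjusted p = 1.22e-11). These are folds of 2.18, 1.72 and 2.13 below mock.

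*LHX2* showed the largest log2 difference from mock of the 6 genes on the scale with an offset of 50. With neqc or with the floor of 20 *HESX1* differed more (-3.00 with the floor in the OCT4 and SOX2 knock-downs, against 2.44 and 2.48 for *LHX2*). Its level was 7.95, 7.81 and 7.71 in mock and 7.69, 7.63 and 7.80 in the NANOG knock-down. In the OCT4 knock-down it was 9.74, 9.91 and 9.91, and in the SOX2 knock-down 9.93, 9.80 and 9.91. The OCT4 and SOX2 knock-down arrays lay far above the mock arrays, while the NANOG knock-down arrays overlapped them. *LHX2* rose 4.08-fold in the OCT4 knock-down (log2 difference 2.03 ± 0.08, standard error, limma, adjusted p = 2.1e-17) and 4.16-fold in the SOX2 knock-down (2.06 ± 0.08, limma, adjusted p = 1.53e-17). In the NANOG knock-down the difference from mock was -0.12, with a 95% confidence interval of -0.28 to 0.05 (limma, adjusted p = 0.543). The authors' means were 116.279 in mock, 672.933 and 719.791 in the OCT4 and SOX2 knock-downs and 105.481 in the NANOG knock-down.

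*LHX1* went from background to a low level. It was not above background on any mock array (6.22, 6.08 and 6.24) or any NANOG knock-down array (6.15, 6.05 and 6.28). It was above background on all 3 arrays of the OCT4 knock-down, at 6.72, 6.99 and 6.90, and on all 3 of the SOX2 knock-down, at 6.60, 6.86 and 6.68. None of the arrays on which it was measured overlapped the mock arrays. *LHX1* was at least 1.36-fold higher than mock in the OCT4 knock-down (limma, adjusted p = 7.52e-07) and at least 1.22-fold higher in the SOX2 knock-down (limma, adjusted p = 4e-05). Its raw signals there, 170.1, 187.9 and 173.7 with OCT4 silenced and 138.9, 155.2 and 134.8 with SOX2 silenced, stand beside the higher array medians of these groups, and the part of the array floor in its rise was not tested. Over the alternatives the log2 difference ran from 0.36 to 1.34 with OCT4 silenced and from 0.27 to 1.04 with SOX2 silenced. The rise with SOX2 silenced was not called by the methods' t-test, run here on the same normalized values (adjusted p = 0.0584), or with signals set to a floor of 20 (limma, adjusted p = 0.0705).

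*LHX5* was a dim probe, above background on all 12 arrays, with the widest spread in mock (SD 0.23). It was at 6.49, 6.95 and 6.76 in mock and at 6.67, 6.68 and 6.89 in the NANOG knock-down. The OCT4 knock-down arrays, at 7.50, 7.24 and 7.42, were above all of these, and the SOX2 knock-down arrays, at 6.9994, 6.88 and 7.02, overlapped the mock arrays. *LHX5* rose 1.57-fold in the OCT4 knock-down (log2 difference 0.65 ± 0.10, standard error, limma, adjusted p = 8.81e-06). The methods' t-test, run here on these offset, quantile-normalized values and not on the authors' own, did not make this call, either after adjustment or at its threshold. Over the alternatives the log2 difference ran from 0.40 to 1.49. The authors' means were 28.5525 in mock and 82.2075, 27.9144 and 48.3452 in the OCT4, NANOG and SOX2 arms. In the SOX2 knock-down its difference from mock was 0.23, with a 95% confidence interval of 0.03 to 0.43 (limma, adjusted p = 0.145). That value moved with the mock arrays: it was 0.34 without mock replicate 2 (limma, adjusted p = 0.0212) and 0.11 without mock replicate 1 (limma, adjusted p = 0.648).

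**Figure D2:**
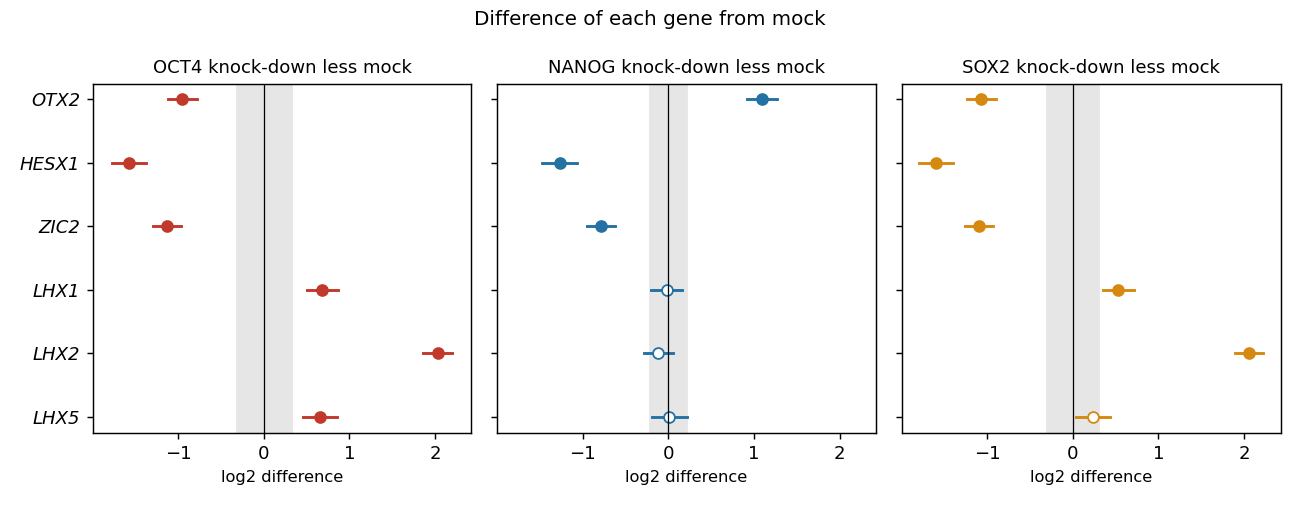
Difference of each gene from mock (horizontal axis, log2) with OCT4, NANOG or SOX2 silenced; points are means of 3 arrays less 3 arrays, bars are 95% confidence intervals, filled points passed an adjusted p of 0.05, and the grey band runs from the 5th to the 95th percentile of all probes. *OTX2* is at -0.95, 1.09 and -1.07, and the 3 *LHX* genes lie inside or near the band in the NANOG knock-down.

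Read as a group against the array, the OCT4 knock-down changed all 6 genes, 3 higher and 3 lower, where 7.23% of all probes were called higher, 7.29% lower and 14.5% in either direction. The NANOG knock-down changed 3 of 6, with *OTX2* higher and *HESX1* and *ZIC2* lower, against 3.18% of probes higher, 3.02% lower and 6.2% in all. The SOX2 knock-down changed 5 of 6, 2 higher and 3 lower, against 6.33%, 6.73% and 13.1%. The median log2 difference over the 6 genes was -0.15, -0.07 and -0.42 with OCT4, NANOG or SOX2 silenced, and that over all probes was -0.01, -0.002 and -0.01. These comparisons share the mock arrays. All 6 probes are in the study's own list of genes changed on these arrays. Counts of them, here and between knock-downs, are therefore not independent evidence of a change. The share of all called probes that were higher depended on the scaling: it was 49.8%, 51.3% and 48.5% with OCT4, NANOG or SOX2 silenced, but 13.3%, 31% and 32.8% with arrays scaled to a common median, which moved the median of all probes in the OCT4 knock-down to -0.17, and 38.5%, 39.5% and 40.3% with the floor of 20. No called difference of the 6 genes from mock changed sign under these settings.

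Differences between knock-downs were tested on their own. *OTX2* was 4.13-fold lower in the OCT4 than in the NANOG knock-down (limma, adjusted p = 4.66e-17) and 4.48-fold lower in the SOX2 than in the NANOG knock-down (limma, adjusted p = 1.31e-17), and 0.0677% and 0.0613% of all probes differed as far or further in that direction. *LHX2* was 4.42-fold higher in the OCT4 than in the NANOG knock-down (limma, adjusted p = 8.19e-18) and 4.51-fold higher in the SOX2 knock-down (limma, adjusted p = 6.19e-18). *LHX1* was at least 1.35-fold higher in the OCT4 knock-down (limma, adjusted p = 5.56e-07) and at least 1.22-fold higher in the SOX2 knock-down (limma, adjusted p = 2.73e-05) than in the NANOG knock-down, the second of which was lost in 4 of 24 alternatives (the floor of 20, adjusted p = 0.0787, both settings of the methods' t-test, 0.0749, and a fold of at least 1.5). Between the OCT4 and NANOG knock-downs all 6 genes were called, 3 in each direction, against 12.4% of all probes (6.03% higher and 6.35% lower). Between the SOX2 and NANOG knock-downs 5 of 6 were called, 2 higher and 3 lower, against 12.2% (5.66% and 6.58%).

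The smaller differences between these groups concerned the genes that fell everywhere. *ZIC2* was 1.27-fold lower in the OCT4 than in the NANOG knock-down (limma, adjusted p = 0.0029) and 1.24-fold lower in the SOX2 knock-down (limma, adjusted p = 0.00742), but both differences were lost in some alternatives. The first was lost in 3 of 24 (both settings of the methods' t-test, adjusted p = 0.156, and a fold of at least 1.5). The second was lost in 6 of 24: in those 3 (0.204 by the methods' t-test), with an offset of 16 (0.064), and without NANOG knock-down replicate 1 (0.0557) or 3 (0.0528) by limma. *HESX1* was 1.23-fold lower in the OCT4 than in the NANOG knock-down (limma, adjusted p = 0.0402), and this was lost in 11 of 24 alternatives, among them leaving out OCT4 knock-down replicate 1 or 3 or NANOG knock-down replicate 1. It was at least 1.14-fold lower in the SOX2 than in the NANOG knock-down (limma, adjusted p = 0.0224), which was lost in 9 of 24, among them leaving out NANOG knock-down replicate 1 or SOX2 knock-down replicate 1 or 2. *LHX5* was 1.56-fold higher in the OCT4 than in the NANOG knock-down (limma, adjusted p = 1.42e-05). This was lost in 1 of 24 alternatives (the methods' t-test after Benjamini-Hochberg adjustment, adjusted p = 0.0528). The difference of *LHX5* between the SOX2 and NANOG knock-downs did not pass (0.22, 95% confidence interval 0.02 to 0.42, limma, adjusted p = 0.188).

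None of the 6 genes passed the test between the OCT4 and SOX2 knock-downs, where 0.152% of all probes did (0.144% higher and 0.00846% lower with OCT4 silenced). The largest difference was that of *LHX5*, 1.34-fold higher with OCT4 silenced and with no overlap between the arrays (log2 difference 0.42, 95% confidence interval 0.22 to 0.62, limma, adjusted p = 0.092). It passed without mock replicate 1 (adjusted p = 0.0365) or 2 (0.0493), which changed the shared estimate of spread in limma and not the difference itself. For *HESX1*, *ZIC2* and *LHX2* the 95% confidence intervals of the log2 difference were -0.17 to 0.23, -0.20 to 0.13 and -0.19 to 0.14, and for *LHX1* the interval was -0.03 to 0.33.

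**Figure D3:**
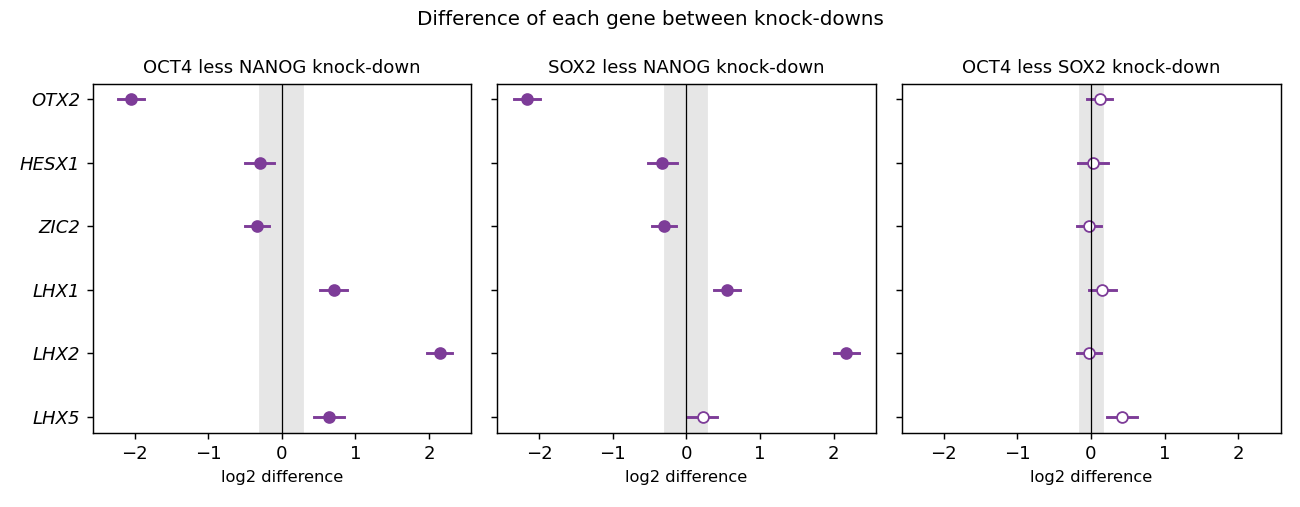
Difference of each gene between pairs of knock-downs (horizontal axis, log2), with 95% confidence intervals as bars, filled points for an adjusted p under 0.05 and a grey band from the 5th to the 95th percentile of all probes. *OTX2* is at -2.05 and -2.16 and *LHX2* at 2.15 and 2.17 against the NANOG knock-down, and all 6 points are open between the OCT4 and SOX2 knock-downs.

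The pattern of each gene over the 12 arrays was set against the 16765 probes above background on at least 3 arrays. The likeness is Pearson's r over the 12 arrays, given as a description: the arrays fall into the 4 groups, and only probes in the study's list of changed genes carry a name. The named probes most like *OTX2* were 2 probes of *FEZ1* (r = 0.994 and 0.991), which encodes a kinesin adaptor of axons, and *CYP26A1* (0.991), which encodes a retinoic acid hydroxylase. Those most like *HESX1* were *PCK2* (0.983), *PNMA2* (0.981) and LOC221683 (0.981). *ZIC2* was most like *PTPN2* (0.994), *TERF1* (0.992), which encodes a telomere-binding protein, and *MPHOSPH10* (0.990). *LHX2* was most like *CDH3* (0.998), which encodes P-cadherin, *CALD1* (0.997), which encodes the actin-binding caldesmon, and *SLC7A5* (0.997), an amino acid transporter. For *LHX1* they were *SLBP* (0.974), *GAREM1* (0.970) and *CRIM1* (0.965), and for *LHX5*, with lower values, *SH3GLB1* (0.899), IFP38 (0.893) and *GNPDA2* (0.889).

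The relatives and partners of these genes were read from fixed lists, of which only genes in the study's own list of changed genes could be named. Counts over them are therefore not independent evidence of a change. The part of that list held lacks some genes lower with NANOG silenced and the parts for the SOX2 knock-down. The named genes may therefore lean towards those that rose. None of 31 forebrain and midbrain regulators on the list, such as *SIX3* and *PAX6*, had a named probe.

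Of 18 LIM homeobox genes and cofactors, 6 were named, by 7 probes. In the OCT4 knock-down 4 probes were called higher and 2 lower, in the NANOG knock-down 4 higher and 1 lower, and in the SOX2 knock-down 4 higher and 3 lower. Of all probes, 7.23%, 3.18% and 6.33% were called higher in these knock-downs and 7.29%, 3.02% and 6.73% lower. *ISL1*, a LIM-homeodomain factor of motor neurons and cardiac progenitors, rose by 1.84 ± 0.08 and 1.54 ± 0.08 in log2 in the OCT4 and SOX2 knock-downs (limma, adjusted p = 1.02e-16 and 5.13e-15) and differed by -0.14 in the NANOG knock-down (0.414), so that it moved as *LHX2* did. The adaptor gene *LDB2* fell by 1.55 and 1.63 in log2 in the OCT4 and SOX2 knock-downs (limma, adjusted p = 9.81e-14 and 2.95e-14). *SSBP2* and *SSBP3*, which encode proteins that stabilize LDB complexes, rose in all 3 knock-downs, *SSBP2* by 1.34, 0.39 and 1.48 in log2 with OCT4, NANOG or SOX2 silenced. The LIM-only gene *LMO1*, whose product competes for LDB, rose by 1.06 in log2 in the NANOG knock-down (limma, adjusted p = 1.07e-08), was at least 1.17-fold lower in the SOX2 knock-down (limma, adjusted p = 0.00369) and differed by -0.22 in the OCT4 knock-down (limma, adjusted p = 0.171). *LMO4* fell in all 3, by 0.58, 0.45 and 0.55 in log2.

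**Figure D4:**
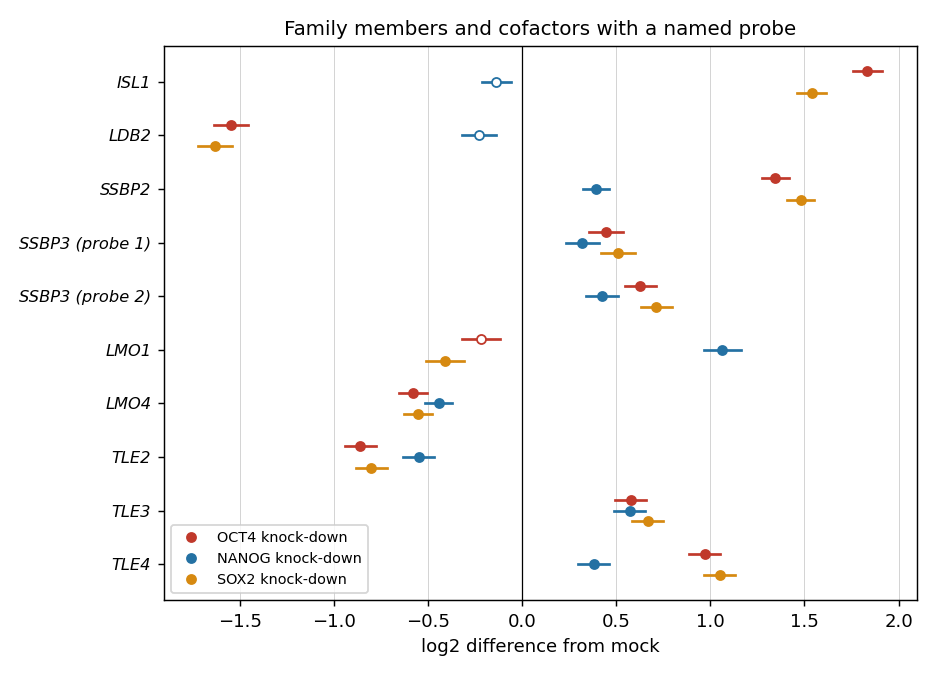
Log2 difference from mock (horizontal axis) of the LIM-domain, LDB-complex and TLE genes that had a named probe, with OCT4, NANOG or SOX2 silenced; bars are standard errors and filled points passed an adjusted p of 0.05. *ISL1* and *LDB2* move in opposite directions in the OCT4 and SOX2 knock-downs (1.84 and -1.55 with OCT4 silenced), and *LMO1* rises only with NANOG silenced among these 3 comparisons (1.06).

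Of 19 genes for partners of HESX1 and OTX2 and for the head organizer, 8 were named. In each knock-down 5 were called higher and 3 lower. All were named from the study's list of changed genes, and 14.5%, 6.2% and 13.1% of all probes were called with OCT4, NANOG or SOX2 silenced. Among the TLE corepressors *TLE2* fell by 0.86, 0.55 and 0.80 in log2 with OCT4, NANOG or SOX2 silenced, while *TLE3* rose by 0.58, 0.57 and 0.67 and *TLE4* by 0.97, 0.38 and 1.05. Of the secreted antagonists of WNT, *SFRP2* changed by -2.99, -1.40 and -3.08, *SFRP1* rose by 2.63, 0.72 and 2.67, and *FRZB* rose by 0.36, 1.24 and 0.26. *LEFTY1* was lower and *LEFTY2* higher in all 3, the latter by 4.01, 1.47 and 4.06, and since they are close paralogs a probe may read both.

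Of 22 neural progenitor and neuronal genes, 8 were named, and none of these was called lower. Of all probes 7.29%, 3.02% and 6.73% were called lower with OCT4, NANOG or SOX2 silenced. The unnamed genes of this list were not read. *NES*, the intermediate filament gene of neural progenitors that is also made in muscle and endothelial precursors, rose by 1.89, 0.89 and 2.08 in log2 with OCT4, NANOG or SOX2 silenced. *INA* rose by 0.80 and 0.85 in the OCT4 and SOX2 knock-downs and *SOX11* by 0.58, 0.40 and 0.62 in all 3. *STMN2*, a neuronal tubulin regulator, and *MSI1*, an RNA-binding protein of progenitors, rose in the NANOG knock-down alone among the comparisons with mock, by 0.62 and 0.80 (limma, adjusted p = 1.41e-06 and 5.68e-09). *MAP2*, a dendrite protein gene, was at least 1.31-fold, 1.04-fold and 1.31-fold higher. Of 21 posterior neural and HOX genes 2 were named: *CDX4* fell in all 3 knock-downs, by 0.75, 0.48 and 0.81, and *MEIS2* rose in all 3, by 0.95, 0.78 and 1.01. With OCT4, NANOG or SOX2 silenced, 41, 31 and 41 probes over all lists were called, against 14.5%, 6.2% and 13.1% of all probes. Each of these list probes kept its direction under the 5 other settings of background and scaling. Not all stayed called: the lowest numbers still called over these settings were 40 of 41, 29 of 31 and 38 of 41.

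Markers of other states moved with the same groups. The 10 named probes of the pluripotent list summed to a normalized signal of 18000 to 19100 in mock, 11800 to 13000 in the NANOG knock-down, and 4380 to 5110 and 4400 to 4770 in the OCT4 and SOX2 knock-downs. A few bright probes carried most of this sum. In mock they were the brighter *DNMT3B* probe (log2 level 12.98), *LIN28A* (11.9) and *GDF3* (11.74). In the OCT4 and SOX2 knock-downs they were *LIN28A* (11.27 and 11.36) and the same *DNMT3B* probe (10.68 and 10.53). The 8 named mesoderm probes summed to 930 to 984 in mock, 2220 to 2730 in the NANOG knock-down, and 6970 to 7150 and 5920 to 6590 in the OCT4 and SOX2 knock-downs. *HAND1*, which was chosen for mention after its value was seen, carried most of the sum in every group. Its log2 level was 9.30 in mock and 12.39, 11.08 and 12.15 with OCT4, NANOG or SOX2 silenced. In the NANOG knock-down *HAND1* rose by 1.78 in log2 (limma, adjusted p = 1.93e-14) and *MSX2* fell by 0.45 (limma, adjusted p = 0.000688). The other 6 were not called there, and the median of the 8 was 0.05. All 8 were called higher in the OCT4 and in the SOX2 knock-down, and 4 of them were above background on no mock array. Of all probes 7.23% and 6.33% were called higher in these knock-downs. The markers too could be named only from the study's list of changed genes, so counts over them are not independent evidence of a change. No trophoblast or endoderm marker of the lists had a named probe. The part of these changes in the levels of the 6 genes was not tested, and in a bulk sample a smaller number of expressing cells and less RNA per cell cannot be told apart.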

How the data were processed

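RNA from NCCIT cells was amplified to biotin-labelled cRNA and hybridised by the authors to Illumina BeadChips, 12 arrays in 4 groups of 3 biological replicates. The deposited files hold, per array, the mean bead intensity of each probe, neither background-subtracted nor normalized, and a deposited detection score from 0 to 1 that rises with signal. The series table holds the authors' mean intensity per group, background-subtracted and rank-invariant normalized in BeadStudio 1.0 per the submitters' notes. Its missing values are probes below detection. Chip and position are not given in the sources used here, so no batch could be tested.

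In R 4.3.3 with limma 3.58.1, 4 control rows were dropped, signals were corrected with normexp (offset 50), quantile-normalized and taken to log2. All 47289 probes were fitted with lmFit and eBayes over the 12 arrays, and p-values were adjusted by the Benjamini-Hochberg method over all probes of a comparison, with calls at 0.05. No filter on low values was used, so all 6 member probes were tested. A probe above background (score over 0.95) on no array of a group has a bound only: the brighter group's mean is set against, per array, the higher of the probe's value and the lowest value of any probe above background. The script was tested on simulated data. Bead number limits precision and is not given.

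Probes were named from the study's list of changed genes (2985 probes, 2481 matched to RefSeq by accession), which is held in part. The members, lists and tests were chosen with earlier results of these data known. Named genes were the 6 members, the targeted genes, up to 6 called genes a list by smallest adjusted p (*TLE3* and *LEFTY1* were added after their values were seen, beside their relatives) and the 3 probes most like each member. 1 list member is not reported here. Alternatives are given in the closing section.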

Additional observations from a re-analysis of the deposited data

How the results depend on the processing

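Of the 14 called differences from mock among the 6 genes, all kept their sign in 24 alternatives each (336 values), and 328 values stayed called. The 8 that did not were *LHX5* in the OCT4 knock-down (2 t-test settings), *HESX1* and *ZIC2* in the NANOG knock-down (adjusted p = 0.0661 and 0.0624 by the methods' t-test after Benjamini-Hochberg adjustment, run on the normalized values used here), and *LHX1* in the SOX2 knock-down (floor, 2 t-test settings, 1.5-fold). At the methods' own threshold, without that adjustment, the t-test did call *HESX1* and *ZIC2* in the NANOG knock-down. Over all 864 member values, 42 lost and 3 gained a call, and 11 changed sign, all of them uncalled: *LHX5* in the NANOG knock-down (-0.05984 with median scaling, -0.02169 with the floor, -0.1089 to 0.1233 leaving out arrays), *LHX1* there (-0.08096 to 0.03591 leaving out arrays), and between the OCT4 and SOX2 knock-downs *HESX1* (-0.09431 with median scaling, -0.04907 to 0.1051 leaving out arrays), *ZIC2* (-0.05972 to 0.001996) and *LHX2* (-0.06807 to 0.028).

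Counts of called probes moved more. Against mock they were 6866, 2932 and 6177 with OCT4, NANOG or SOX2 silenced. Median scaling gave 20154 in the OCT4 knock-down and an offset of 16 gave 1610 in the NANOG knock-down. The methods' t-test at its threshold gave 1799, 476 and 1807, after Benjamini-Hochberg adjustment 4025, 481 and 3281, and a fold of at least 1.5 as well gave 1828, 520 and 1838. Between the OCT4 and NANOG knock-downs the count was 5853, with 1508, 3246 and 1544 by those 3 settings, and between the SOX2 and NANOG knock-downs 5789, with 1559, 2700 and 1592. Between the OCT4 and SOX2 knock-downs it was 72, with 4, 0 and 17, and 0 with neqc, with an offset of 16 and with the floor, 109 with an intensity trend and 32 with the 2 groups alone. Leaving out 1 array gave 5845 to 6951, 1933 to 2917 and 5385 to 6237 against mock, and 4947 to 5934, 4843 to 5886 and 7 to 81 between the OCT4 and NANOG, SOX2 and NANOG, and OCT4 and SOX2 knock-downs. The NANOG count was lowest without NANOG knock-down replicate 2 (1933), and the OCT4 against SOX2 count without OCT4 knock-down replicate 1 (7), SOX2 knock-down replicate 1 (7) or SOX2 knock-down replicate 2 (14). The cause was not tested.

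The raw files number the replicates 1 to 3. Same-numbered arrays did not deviate together throughout (r of deviations -0.29 to 0.301, over 0.1 in 4 of 18 pairs). The knock-down arrays numbered 1 did so in each pair (0.301, 0.196 and 0.133). Arrays numbered 1 also had the highest median raw signal of each group. The numbers were not used as a pairing, and these values cannot tell whether same-numbered arrays shared a batch. With the replicate block the counts were 6720, 2803 and 6081 against mock and 5756, 5699 and 76 between knock-downs, and no call of the 6 genes changed.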
